A study of Mus musculus with 13 samples.

Results

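A divergent promoter is a stretch of DNA from which a pair of genes is read outwards, one on each strand. Of 22367 protein-coding genes in the mouse annotation (GENCODE vM1, genome build mm9, chromosomes 1 to 19, X and Y), 1599 genes (7.15%) belonged to such pairs with starts no more than 1000 bases apart. They formed 808 pairs, because 17 genes belonged to 2 pairs each. The region studied for each pair was the interval between both starts plus 1 kb on each side. The 20768 remaining coding genes, called single here, served as the comparison. R-loops over these regions were measured in N2a cells, a mouse neuroblastoma line, by DRIP-seq, which sequences restriction fragments pulled down with the S9.6 antibody against hybrids of RNA and DNA.

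Cells had been transfected with scramble siRNA (siScramble, genotype given as WT) or with siRNA against DDX1 (siDDX1) or EXOSC3 (siEXOSC3), with 3 untreated DRIP libraries per group and 1 library per group whose genomic DNA had been treated with RNase H, an enzyme that removes the RNA of a hybrid. All libraries thus come from 1 cell line, and a transient knockdown leaves some of the protein in place. The labels do not tie replicates to cultures. The study's methods describe 3 plates seeded for each condition as its biological replicates, so the p-values below measure the spread between such libraries of 1 line. In 12 of 12 peak lists the treatment in the peak names differed from the sample title. Lists titled siScramble held peaks named siDDX1, those titled siDDX1 held peaks named siEXOSC3, and those titled siEXOSC3 held peaks named siScramble. Groups below follow the titles, so each group named below would be read through this rotation if the peak names were right. Peak lists cannot check the knockdown itself. Nor can they identify the cell type. Of the neuronal markers, Map2 was not found under that symbol, and among the other 7 the start of Tubb3 lay under a peak in 8 of 9 untreated libraries while the rest were under none. Of 7 markers of other cell types, only Gfap had a peak over its start, in 3 of 9.

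An R-loop forms when a nascent transcript pairs with its DNA template and displaces the other strand. R-loops are known to lie over the starts of many active genes, above all those in CpG islands, where the displaced strand is rich in G. Divergent coding pairs usually share a CpG island and lack a TATA box, and many serve housekeeping functions such as translation, DNA repair and chromatin. The RNA exosome, of which EXOSC3 is a subunit, degrades short-lived RNAs that arise upstream of promoters, and DDX1 is a DEAD-box RNA helicase.

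The gap between the starts of a pair ranged from 1 to 987 bases, with quartiles of 73, 141 and 271 bases. In 637 pairs (78.8%) it was 300 bases or less. Within 500 bases of the start, the observed over expected CpG ratio had a median of 0.774 at divergent and 0.506 at single starts, and 84.2% of divergent against 42.7% of single starts were CpG-rich (a ratio of 0.6 or more). Median GC content was 59.8% and 54.1%. Short sequence motifs were counted on both strands from 250 bases before to 50 bases after each start. The GC box letters GGGCGG were present at 68.4% of divergent starts and 43.4% of all coding starts. The ETS letters CCGGAAG were at 27.8% against 10.8%, the NRF1 letters GCGCATGC at 6.82% against 3.30%, CCAAT at 42.8% against 37.9%, and ACTACAATT, the letters of ZNF143 and THAP11, at 0.750% against 0.469%. TATAAA was rarer at divergent starts (4.44% against 13.4%). Among CpG-rich starts GGGCGG was about as frequent in both classes (72.1% divergent, 71.5% single), whereas CCGGAAG was still at 30.1% of divergent and 16.9% of single starts.

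The sequences between the starts of several pairs are shown because the pairs span the range of the peak data, from no peak in any untreated library to peaks among the strongest of every library. Each is the plus strand of mm9 from the start of the minus-strand gene to the start of the plus-strand gene, both included, with the motifs above in capitals on either strand. The first group had no peak in any untreated library.
Exosc8/Alg5, chr3:54539315-54539461: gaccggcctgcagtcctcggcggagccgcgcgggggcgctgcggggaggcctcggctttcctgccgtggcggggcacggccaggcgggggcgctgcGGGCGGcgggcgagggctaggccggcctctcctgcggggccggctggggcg
Mrps12/Sars2, chr7:29526839-29527010: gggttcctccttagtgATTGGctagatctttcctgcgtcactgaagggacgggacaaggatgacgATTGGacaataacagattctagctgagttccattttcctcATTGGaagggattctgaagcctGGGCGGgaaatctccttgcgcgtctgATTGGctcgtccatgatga
Exosc1/Zdhhc16, chr19:42007804-42007962: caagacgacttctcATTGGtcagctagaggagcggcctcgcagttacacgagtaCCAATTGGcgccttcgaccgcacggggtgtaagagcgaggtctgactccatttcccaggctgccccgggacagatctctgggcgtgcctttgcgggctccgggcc

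The second group had a peak in 9 of 9 untreated libraries, with the strongest peak of the window at or above the fold enrichment percentile of 73.5 in each of them. That peak overlaps the window, and its summit need not lie in it.
Zdhhc3/Exosc7, chr9:123022323-123022333: aggcgcggtgg
Ddx5/Ccdc45, chr11:106650499-106650566: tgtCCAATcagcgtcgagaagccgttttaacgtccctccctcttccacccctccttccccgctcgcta
Sqstm1/Mgat4b, chr11:50024329-50024392: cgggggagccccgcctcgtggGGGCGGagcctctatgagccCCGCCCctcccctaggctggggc
Slc39a7/Rxrb, chr17:34168635-34168757: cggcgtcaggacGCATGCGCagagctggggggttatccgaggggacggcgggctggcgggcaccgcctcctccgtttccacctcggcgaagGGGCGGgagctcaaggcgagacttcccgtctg
Srsf7/Ttc39d, chr17:80606629-80606800: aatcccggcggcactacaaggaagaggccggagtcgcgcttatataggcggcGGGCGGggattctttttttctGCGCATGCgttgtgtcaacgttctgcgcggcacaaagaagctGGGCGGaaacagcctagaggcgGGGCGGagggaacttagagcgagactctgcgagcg

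The letters between the starts did not separate these groups in a simple way. The Exosc8/Alg5 stretch had the highest GC content of the 8 shown here (83.7%, with 22 CpG in 147 bases) and no peak, whereas the Ddx5/Ccdc45 stretch had 58.8% GC and 6 CpG in 68 bases and the strongest peaks. Overlapping CCAAT letters on both strands gave the run CCAATTGG in the Exosc1/Zdhhc16 stretch. Over all divergent starts, 32.2% of those with CCGGAAG were under a peak on average over the untreated libraries and 26.7% of those without it. For CCAAT the values were 24.9% with and 30.7% without. For GGGCGG they were 29.4% and 25.7%.

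Divergent promoters carried R-loop peaks more often than single promoters in every untreated library. The share of divergent windows with a peak was 34.9%, 49.4% and 47.4% in siScramble replicates 1, 2 and 3. It was 53.1%, 34.5% and 36.8% in siDDX1 and 46.8%, 45.0% and 53.3% in siEXOSC3. The highest share for single windows of the same median width (2142 bases) was 25.2%, below the lowest divergent share, so the classes did not overlap. The means were 44.6% ± 7.43 (SD, n = 9) for divergent and 20.4% ± 3.82 for single windows, a difference of 24.2 percentage points (higher in 9 of 9 libraries, two-sided exact permutation test over all swaps of the classes within libraries, p = 0.00391, the smallest this test can give, adjusted p = 0.00547 over 7 comparisons of divergent with single promoters).

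**Figure D1:**
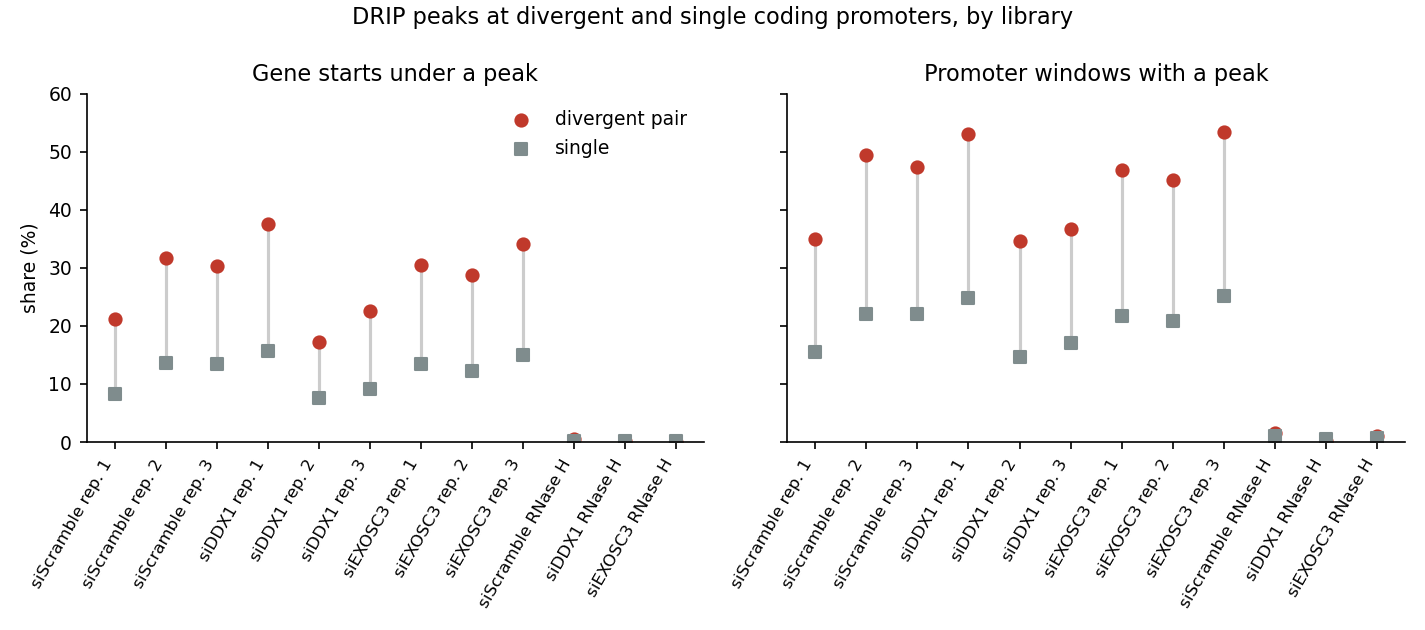
Share of coding starts under a DRIP peak (left) and of promoter windows with a peak (right), in percent, for each of the 12 libraries, with divergent pairs as red circles and single promoters as grey squares. In the 9 untreated libraries divergent windows lie between 34.5% and 53.3% and single windows between 14.6% and 25.2%, and in the 3 RNase H libraries both classes lie at 1.49% or below.

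The start itself gives a measure that does not depend on the width of the window. On average 28.2% ± 6.58 of divergent starts and 12.03% ± 2.94 of single starts lay under a peak (difference 16.2 points, higher in 9 of 9, exact permutation p = 0.00391, adjusted p = 0.00547). Peaks covered 23.8% ± 5.21 of divergent and 10.3% ± 2.41 of single window bases, also a difference in 9 of 9 libraries with the same p. The peak over a start had a median length of 1936 ± 190 bases at divergent and 1786 ± 166 bases at single starts (longer in 8 of 9 libraries, exact permutation p = 0.00781, adjusted p = 0.00911). This median runs over starts, so a peak over both starts of a pair entered it once for each start. Peaks in called windows were also slightly stronger. Fold enrichment over the local background is comparable only within a library, so each window's strongest peak was ranked among all peaks of that library. The median percentile was 78.7 ± 2.17 in divergent and 76.7 ± 1.69 in single windows, higher in 6 libraries and tied in the other 3 (exact permutation p = 0.0312, adjusted p = 0.0312). Without any 1 of the 6 untied libraries (siScramble replicate 1, 2 or 3, siDDX1 replicate 1 or 3, or siEXOSC3 replicate 1) the difference was 1.71 to 2.27 and the exact permutation p was 0.0625, the smallest that 5 untied libraries can give.

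The difference was smaller once starts were split by CpG content. Among CpG-rich starts, 31.9% ± 7.24 of 1346 divergent and 23.2% ± 5.74 of 8858 single starts lay under a peak, a difference of 8.76 points in place of 16.2 (higher in 9 of 9, exact permutation p = 0.00391, adjusted p = 0.00547). Among CpG-poor starts the shares were 8.48% ± 3.77 of 253 divergent and 3.74% ± 0.875 of 11910 single starts (higher in 9 of 9, same p). The share rose with the CpG ratio in both classes from a ratio of 0.2 upwards. At a ratio of 0.8 to 1 it was 38.7% ± 8.25 at divergent and 30.5% ± 7.33 at single starts, and at 1 or more it was 52.7% ± 8.72 and 38.6% ± 10.1. In the bins from 0.2 to 0.4 and from 0.4 to 0.6 divergent starts were higher in only 5 and 6 of 9 libraries, by 0.30 and 2.00 points. Below 0.2 the 28 divergent starts stood at 9.92% ± 4.65 and the single starts at 1.38% ± 0.312 (higher in 9 of 9), so the CpG-poor difference is uneven over these bins. A ratio of 0.4 to 0.6 was found at 166 of the 253 CpG-poor divergent starts but at 3032 of the 11910 single ones. The CpG-poor sets thus differ in CpG content, and the part of this in their difference was not tested.

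**Figure D2:**
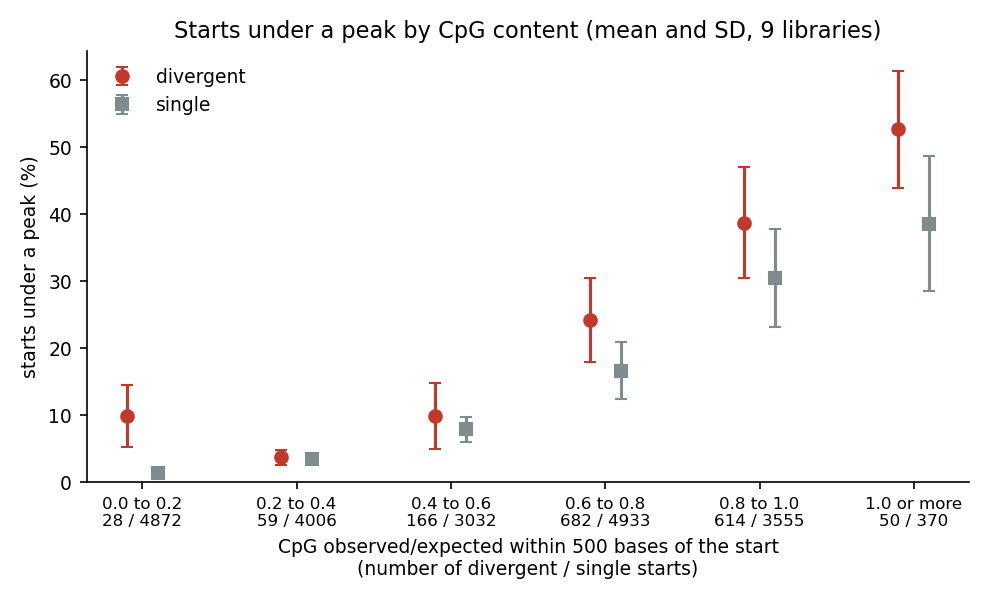
Share of coding starts under a peak, in percent, by the CpG observed/expected ratio within 500 bases of the start, as mean and SD over 9 untreated libraries. Divergent starts (red circles) stand at 52.7% and single starts (grey squares) at 38.6% in the highest bin, and the classes are close between 0.2 and 0.6.

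The length of the restriction fragment that held the start also moved with the share. Genomic DNA had been digested with a mix of BsrGI, EcoRI, HindIII, XbaI and SspI, and a whole fragment is pulled down with any hybrid on it. The median fragment over a start was 1667 bases at divergent and 1514 bases at single starts. On fragments of 500 to 1000 bases 10.7% ± 3.80 of divergent and 3.36% ± 1.01 of single starts were under a peak, and on fragments of 4000 bases or more 70.1% ± 7.93 of 55 divergent and 33.6% ± 5.88 of 997 single starts. Divergent starts were higher in 9 of 9 libraries in each of the 5 length bins. The edge of a peak lay on a cut site for 75.0% ± 3.44 of the peaks over divergent starts and 56.0% ± 3.81 of all peaks.

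Around the start the classes differed more upstream than downstream in each untreated library. Among CpG-rich starts, 22.7% ± 4.72 of positions 1 kb upstream of a divergent start and 11.3% ± 2.34 of those upstream of a single start lay under a peak (difference 11.4 points, higher in 9 of 9, exact permutation p = 0.00391, adjusted p = 0.00521 over 4 tests). At 1 kb downstream the shares were 20.4% ± 4.17 and 20.1% ± 4.52 (difference 0.34 points, from -1.18 to 1.29 over the libraries, higher in 7 of 9, exact permutation p = 0.262, adjusted p = 0.262). Against single starts with no other gene start within 5 kb, the downstream difference was 1.65 points (exact permutation p = 0.00391). Without a limit on CpG content the differences were 14.1 points upstream and 7.60 points downstream. The upstream side of a divergent gene is by construction the transcribed side of its partner, and this distance was chosen after the profile had been seen.

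**Figure D3:**
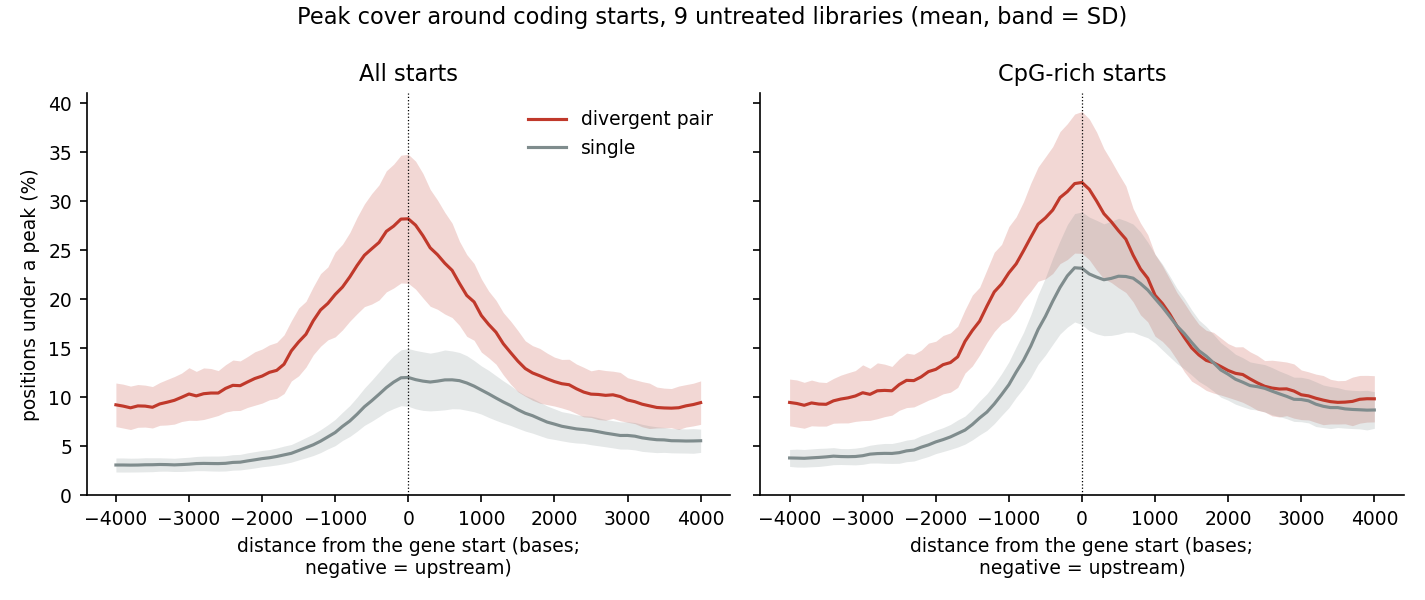
Share of positions under a peak, in percent, against the distance from the gene start in bases (negative values upstream), as mean (line) and SD (band) over 9 untreated libraries, for all starts (left) and CpG-rich starts (right). At CpG-rich starts the divergent curve (red) stands at 22.7% and the single curve (grey) at 11.3% 1 kb upstream, and at 20.4% and 20.1% 1 kb downstream.

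Starts in overlapping or noncoding pairs lay between the divergent and single classes, and starts far from any other gene lay below the single class. The rule leaves out 419 pairs whose genes overlap at their starts, head to head, and 26.3% ± 6.41 of the 827 single starts in them were under a peak. Of 503 single starts with a divergent noncoding gene start within 1 kb, 22.9% ± 5.17 were. Of 16010 single starts with no other gene start within 5 kb, 10.4% ± 2.64 were. Among CpG-rich starts the order was the same, with 29.8% ± 7.32, 27.1% ± 6.25 and 21.7% ± 5.60 against 31.9% at divergent pairs. All classes were measured in the same libraries, so the SD over libraries is not the spread of a step between classes. The steps between divergent, overlapping and noncoding-paired starts were not tested.

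Peaks rarely distinguished the genes of a pair. In an average library both starts lay within 1 peak in 25.3% ± 6.20 of pairs, only 1 start lay under a peak in 5.75% ± 0.869, and the starts lay in separate peaks in 0.165% ± 0.164. Of pairs with any start under a peak, both starts were covered in 81.1% ± 3.02. Where a restriction site cut between the starts (109 pairs), that share was 15.5% ± 7.26, and where none did (699 pairs) it was 87.1% ± 3.47. The peaks carry no strand, so a side can be read only from their position. In 1 pair the peak lay on 1 side throughout. Hnrnpa2b1/Cbx3 (chr6, starts at 51419893 and 51420359, with 2 cuts between them) had the start of Cbx3, which encodes a heterochromatin protein, under a peak in 9 of 9 untreated libraries and the start of Hnrnpa2b1, an RNA-binding protein gene, in 0 of 9. For each called divergent window the summit of the strongest overlapping peak was placed, and 7.64% ± 1.46 of these summits lay between the starts. Such a summit can lie outside the window. The share therefore cannot be set against the 8.90% of window bases that lie between the starts.

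The size of the gap made little difference up to 300 bases. The share of windows with a peak was 46.4% ± 7.50 for gaps up to 100 bases, 46.2% ± 8.53 for 100 to 200, 44.6% ± 6.68 for 200 to 300, 38.8% ± 6.41 for 300 to 500 and 39.8% ± 9.18 for 500 to 1000. The bins were measured in the same libraries, so the SD over libraries is not the spread of a difference between bins. Differences between bins were not tested. Just inside the limit, 20.2% ± 5.14 of 44 starts in pairs with gaps of 800 to 1000 bases were under a peak, and just outside it 25.8% ± 5.47 of 62 starts with gaps of 1000 to 1200 bases.

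Divergent windows were called in every library, and also in only some libraries, more often than coding promoter windows as a whole. A peak was present in 9 of 9 untreated libraries in 197 windows (24.4%, exact 95% confidence interval 21.5 to 27.5%), against 10.8% of all coding promoter windows. No untreated library had a peak in 268 windows (33.2%), against 66.9% of all. The remaining 343 windows (42.5%) were called in 1 to 8 libraries, against 22.3% of all. Where a summit had to lie in the window, only 6.44% were called in 9 of 9. From windows never called to those always called, the median CpG ratio was 0.696, 0.775 and 0.826, the median GC content 57.9%, 60.1% and 63.1%, and the median fragment 1353, 1672 and 2422 bases. The median gap was 141.5, 143 and 136 bases.

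**Figure D4:**
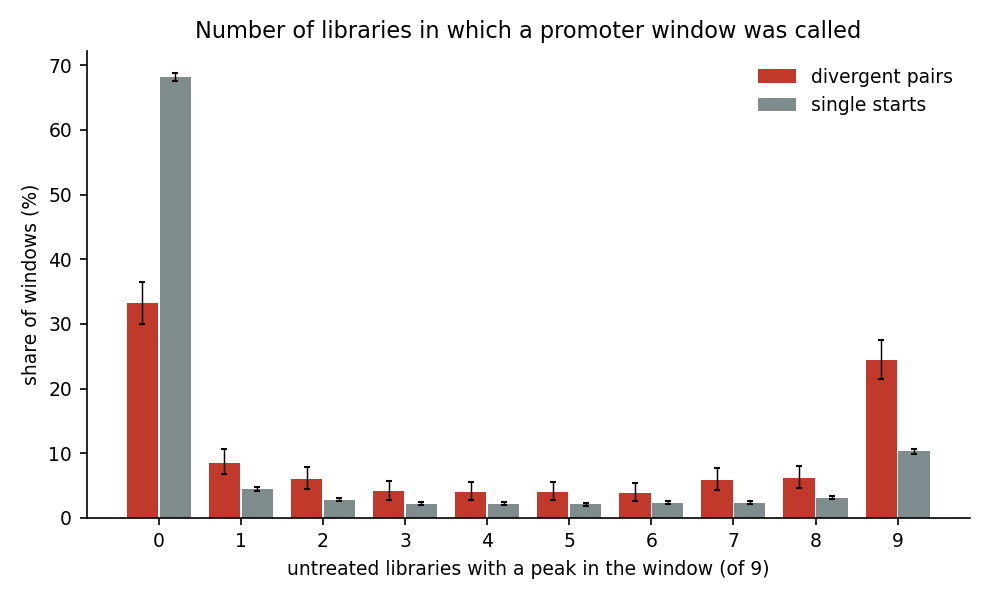
Share of promoter windows, in percent, by the number of untreated libraries (0 to 9) in which the window had a peak, for 808 divergent pairs (red) and 20768 single starts (grey), with exact 95% binomial intervals as error bars. Divergent windows hold 24.4% at 9 libraries and 33.2% at 0, and single windows 10.3% and 68.2%.

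The 6 pairs with the strongest peaks were called in 9 of 9 untreated libraries, with both starts under 1 peak in each. Ddx5/Ccdc45, which pairs a DEAD-box helicase gene with a coiled-coil gene, had fold enrichment percentiles from 99.87 to 99.97 (median 99.93). Sqstm1/Mgat4b, with the autophagy receptor p62, ran from 99.86 to 99.98. The lowest percentile in any library was 99.59 for Slc39a7/Rxrb, a zinc transporter with a retinoid X receptor, and 99.26 for Trappc4/Rps25, which holds a gene of the small ribosomal subunit. For Srsf7/Ttc39d, with a splicing factor, it was 99.28, and for 5031425E22Rik/Mll5 it was 99.18. Since the pairs were chosen for their mean percentile among windows called in 9 of 9, the values are a description. They belong to peaks that overlap the window, and for 5 of the 6 pairs some libraries had no summit in it. A summit was in the window in 9 of 9 libraries for Trappc4/Rps25, 8 for Ddx5/Ccdc45 and 5031425E22Rik/Mll5, 7 for Slc39a7/Rxrb, 5 for Srsf7/Ttc39d and 0 for Sqstm1/Mgat4b.

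Among pairs with a gene of the RNA exosome or of its cofactors, 1 of 6 was called throughout, against 24.4% of all divergent windows. Zdhhc3/Exosc7 had a peak in 9 of 9 untreated libraries, with percentiles of 80.0, 91.8 and 93.3 in siScramble, 88.6, 82.3 and 81.0 in siDDX1 and 92.8, 73.5 and 86.7 in siEXOSC3. The groups overlapped. A summit lay in this window in 3 of 9 libraries. Skiv2l2/Dhx29, with the exosome helicase MTR4, was called in 2 siScramble libraries only. Bckdha/Exosc5 and Rbm7/Gm5617 were called in 1 of 9 each, and Exosc8/Alg5 and Exosc1/Zdhhc16 in 0 of 9. Ddx1 and Exosc3 are in no divergent pair by this rule.

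Textbook divergent pairs varied as widely. Atm/Npat, a DNA damage kinase gene beside a regulator of histone genes, was called in 8 of 9 libraries, all but siDDX1 replicate 2, with a median percentile of 84.4 (19.4 to 95.8). Brca1/Nbr1, a repair gene beside an autophagy receptor gene, was also called in all but that library, with a median of 68.9 (24.3 to 87.1), but both starts lay under 1 peak in only 2 of 9. Gart/Son was called in 1 of 9. Mcm4/Prkdc, which holds a subunit of the replicative helicase, and Mrps12/Sars2, both of whose products act in mitochondrial translation, were called in 0 of 9.

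**Figure D5:**
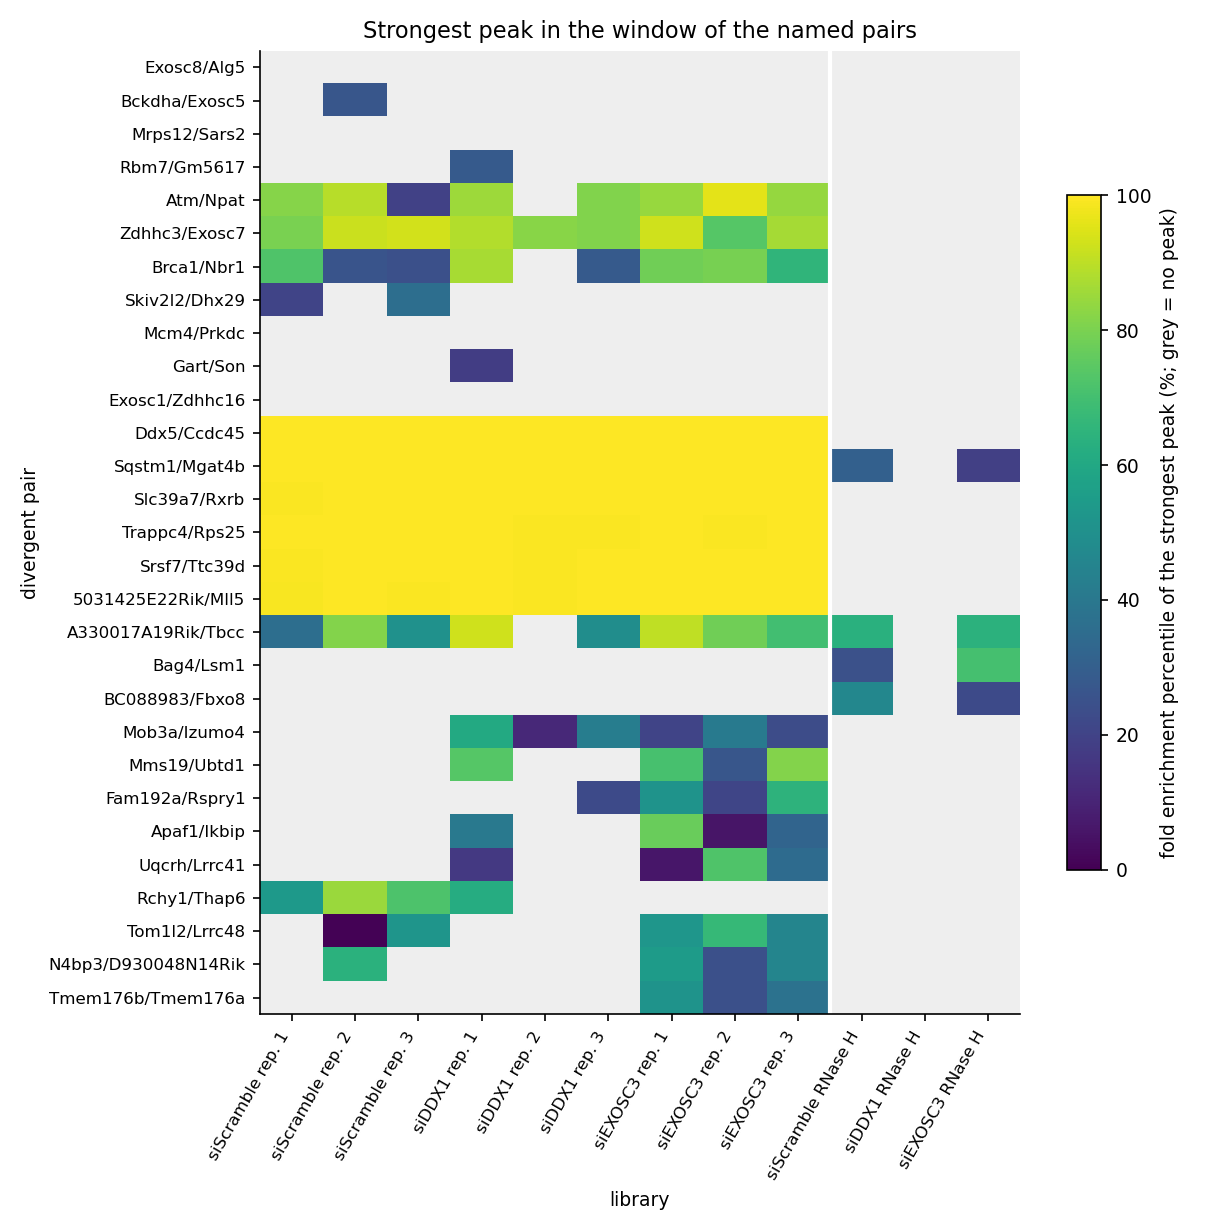
Fold enrichment percentile of the strongest peak in the window, from 0 to 100, for divergent pairs (rows) in each of the 12 libraries (columns), with grey where no peak was called. The 6 strongest pairs stay above 99 in all 9 untreated libraries, and Zdhhc3/Exosc7 stays between 73.5 and 93.3.

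Pairs of gene groups chosen by symbol are given here as counts, beside 24.4% of all divergent windows called in 9 of 9 untreated libraries and 33.2% called in 0 of 9. Of 10 pairs with a gene named Rpl or Rps, 9 had a peak in 9 of 9. They include Med22/Rpl7a, Rps27/Rab13 and Iqcg/Rpl35a, with mean percentiles of 99.3, 98.4 and 99.4. One of them, Rps6kb1/Tubd1, holds a kinase gene and not a ribosomal protein gene. Rnf151/Rps2 was called in 2 of 9. Of Rpl and Rps genes, 7 of 10 in pairs and 51 of 140 single ones had the start under a peak in 9 of 9. Over all coding genes these counts were 190 of 1599 in pairs and 936 of 20768 single. Of 16 pairs with a mitochondrial ribosomal protein gene, 4 were called in 9 of 9 (Mrpl40/Hira, Eme2/Mrps34, Mrps18b/Ppp1r10 and Mrpl49/Fau) and 7 in 0 of 9. Helicase genes named Ddx or Dhx were in 9 pairs, of which 4 were called in 9 of 9 and 1, Ddx25/Pus3, in 0 of 9.

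Replication histone genes were paired most often, with 27 of 67 (40.3%) in divergent pairs. Of the 14 pairs that hold them, 8 were called in 0 of 9 untreated libraries and 1 in 9 of 9, Hist1h2ak/Hist1h2bn, with a mean percentile of 86.4. These genes are near-identical copies, so reads cannot always be placed on 1 of them and the calls are uncertain. Of 12 pairs with a DNA repair gene, Aimp2/Pms2 was called in 9 of 9 and 3 pairs (Tmem111/Fancd2, Rad51c/Tex14 and Mospd2/Fancb) in 0 of 9. Zinc finger genes (Zfp) were in 18 pairs, with 6 called in 9 of 9 and 4 in 0 of 9. Solute carrier genes were in 15 pairs with 4 and 3, and transmembrane genes named Tmem in 21 pairs with 5 and 5. Read against the 24.4% and 33.2% of all divergent windows, the repair, Zfp, solute carrier and Tmem counts differ by a few pairs. These are descriptions of small lists, and no difference between them was tested.

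Between libraries labelled siScramble, siDDX1 and siEXOSC3, no difference in the share of divergent windows with a peak passed a test over libraries. The scramble libraries had a mean of 43.9% ± 7.85 (SD, n = 3), those of siDDX1 41.5% ± 10.1 and those of siEXOSC3 48.4% ± 4.37. Across the 3 groups the exact permutation test over 280 splits gave p = 0.586 for windows, p = 0.639 for starts under a peak and p = 0.718 for the divergent minus single difference (adjusted p = 0.718 each). By pairs of groups, siDDX1 minus siScramble was -2.43 points (exact permutation p = 0.9), siEXOSC3 minus siScramble 4.50 points (p = 0.6, exact) and siEXOSC3 minus siDDX1 6.93 points (p = 0.3, exact), with an adjusted p = 0.9 for each in this permutation test, in which 3 libraries against 3 cannot give less than 0.1. With the same number of peaks kept in each library, siEXOSC3 minus siScramble was 4.21 points (42.0% against 37.8%) with an exact permutation p = 0.1, the smallest that 3 against 3 can give. Under the peak names the tests across 3 groups are unchanged, and these 3 differences read siEXOSC3 minus siDDX1, siScramble minus siDDX1 and siScramble minus siEXOSC3. Background levels in the lists gave siDDX1 replicate 1 a relative depth of 1.86. The mean of the untreated libraries is 1 and the lowest is 0.787. This library had the highest share of starts under a peak (37.6%). The highest share of windows was in siEXOSC3 replicate 3 (53.3%, relative depth 0.799), followed by siDDX1 replicate 1 (53.1%). Without siDDX1 replicate 1, siDDX1 minus siScramble was -8.25 points and siEXOSC3 minus siDDX1 12.7 points. The part of depth in the group values was not tested.

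Few divergent windows were called in all libraries of one group and none of another. Between siEXOSC3 and siScramble, 7 of 808 windows (0.866%) were called in 3 of 3 siEXOSC3 and 0 of 3 siScramble libraries, against 0.501% of all coding promoter windows, and 1 window the other way (background 0.0603%). Between siDDX1 and siScramble the counts were 1 (background 0.0742%) and 0 (background 0.107%). Between siEXOSC3 and siDDX1 they were 3 (background 0.38%) and 0 (background 0.0649%). No single window can pass a test of 3 against 3. Without siDDX1 replicate 1 the criterion is looser, and 33 windows (4.08%, background 2.36%) were called in siEXOSC3 and not siDDX1 and 15 (1.86%, background 1.09%) in siScramble and not siDDX1.

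The peaks behind them were mostly weak. Mms19/Ubtd1, with a gene of iron-sulfur cluster assembly, had percentiles of 71.0, 26.7 and 81.6 in siEXOSC3 and 73.8 in siDDX1 replicate 1. For Fam192a/Rspry1 the siEXOSC3 values were 51.4, 20.8 and 64.8, and for Apaf1/Ikbip, with the apoptosome scaffold gene, 77.2, 5.71 and 32.2. Uqcrh/Lrrc41, Sbds/Tyw1 and Mob3a/Izumo4 also belong to the 7, and Mob3a/Izumo4 was called in all siDDX1 libraries too. Tmem176b/Tmem176a was called in 3 of 3 siEXOSC3 libraries and in none of the other 6, with percentiles of 51.4, 24.5 and 37.5, and is CpG-poor (mean ratio 0.122). Rchy1/Thap6, with a ubiquitin ligase gene, was the window called in siScramble (54.1, 84.9 and 72.1) and not in siEXOSC3. Its peak covered the start of Rchy1 and never that of Thap6, and 1 cut lies between them. Tom1l2/Lrrc48 and N4bp3/D930048N14Rik completed the 3 windows of siEXOSC3 over siDDX1. By the peak names, windows called in siEXOSC3 and not in siScramble become windows called in siScramble and not in siDDX1, those of siDDX1 over siScramble become siEXOSC3 over siDDX1, and those of siEXOSC3 over siDDX1 become siScramble over siEXOSC3.

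Of 431 divergent windows called in 2 or more of the 3 libraries of some group, 292 (67.7%) met this in each of the groups. For single windows this was 3219 of 5184 (62.1%).

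Treatment with RNase H removed nearly all peaks from divergent promoters. The share of divergent windows with a peak was 1.49% in siScramble, 0.248% in siDDX1 and 0.990% in siEXOSC3 (12, 2 and 8 windows), with a mean of 0.908% ± 0.623 against 44.6% without the enzyme (difference -43.7 points, two-sided exact permutation test over 64 assignments, p = 0.0156, the smallest it can give). Relative depth in these libraries was 1.62 to 2.31, higher than in 8 of the 9 untreated libraries. That value is implied by the background at called peaks and is not a read count. The RNase H lists hold 3811 to 8034 peaks, fewer than any untreated list, so the value rests on other peaks there. A peak in at least 1 RNase H library was found in 16 divergent windows (1.98%, background 1.58%) and in at least 2 in 6 windows (0.743%, background 0.538%).

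The windows with peaks in 2 RNase H libraries differed in their untreated calls. A330017A19Rik/Tbcc, with a tubulin folding cofactor gene, was called in 8 of 9 untreated libraries. Sqstm1/Mgat4b was called in 9, and its percentile was 30.8 in the siScramble and 19.1 in the siEXOSC3 RNase H library, against at least 99.86 without the enzyme. Bag4/Lsm1 and BC088983/Fbxo8 were called in 0 of 9 untreated libraries and in 2 of 3 RNase H libraries.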

How the data were processed

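DRIP-seq peak lists of 12 libraries were analysed, and the 1 input sample was not analysed here. Per the study's methods the authors aligned reads to mm9 with Bowtie2 2.4.4, sorted them with SAMtools and called peaks per library, not pooled, with MACS2 2.2.6 against input. DESeq2 and HOMER 4.11 are named in the submitters' processing notes and were not used here. The deposited lists give a display score (not used), the fold enrichment as a ratio, −log10 p and −log10 q, and the summit offset. Lists of untreated libraries hold 23882 to 42571 peaks, and read counts were not used here, so relative depth was recovered from the background level implied by the deposited fold enrichment and −log10 p. A peak call has only 2 states, so changes of signal within called windows are not seen, and intervals cover counting error only.

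A window was called with 1 base or more of overlap. Single windows reached 1 kb downstream and 1141 bases upstream. Tests were exact permutation tests over libraries with Benjamini-Hochberg adjustment within each family (Python 3.11.15, NumPy 2.4.6, SciPy 1.17.1), checked on simulated peaks. Named pairs were those with exosome genes or Ddx1, known pairs, the 6 strongest called in 9 of 9 libraries, up to 4 per direction called in 3 of 3 against 0 of 3, and up to 5 with peaks in 2 or more RNase H libraries. Hnrnpa2b1/Cbx3, Sbds/Tyw1 and pairs given as examples of gene groups were named after their values were seen. Pairs and lists were chosen with earlier results of these data known. Of the windows with peaks in 2 or more RNase H libraries, 2 are not reported here by name. For 9 pair symbols the annotation lists 2 pairs of gene entries.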

Additional observations from a re-analysis of the deposited data

How the results depend on the processing

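The higher shares of starts, windows and bases under a peak at divergent promoters kept their direction and stayed past the threshold in each alternative run for them (6, 10 and 8 of them, exact permutation p = 0.00391) and without each library in turn. The window difference ranged from 18.9 to 27.0 points over the alternatives, the CpG-rich difference from 8.17 to 10.3 points, the CpG-poor difference from 3.30 to 12.5 points (highest with the CpG limit at 0.8, which by construction adds starts of 0.6 to 0.8), the percentile from 1.99 to 4.16 (highest against strict single starts, exact permutation p = 0.00781) and peak length from 98.7 to 210 bases. With each gene in 1 pair only, the percentile of fold enrichment differed by 2.01 and was no longer past 0.05 (exact permutation p = 0.0625). Without single libraries the same differences ran from 15.5 to 17.0 points for starts, 23.7 to 24.8 for windows, 12.87 to 13.96 for bases, 1.71 to 2.29 for the percentile, 121 to 170 bases for peak length, 8.33 to 9.19 for CpG-rich and 4.12 to 5.23 points for CpG-poor starts. Upstream by 1 kb they ran from 13.4 to 14.6 (all) and 10.8 to 11.9 points (CpG-rich), and downstream from 7.32 to 7.80 and 0.22 to 0.53 points. The downstream difference at CpG-rich starts, an analysis chosen after seeing the data, was 1.65 points against strict single starts and 1.27 points with gaps of 300 bases or less, both past the threshold, and -0.82 points with a CpG limit of 0.8. The cause was not tested.

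When each library was reduced to the same number of peaks, siDDX1 minus siScramble turned from -2.43 to 0.12 points, and it was 0.31 without siScramble replicate 2 and 1.03 without siDDX1 replicate 2, with a range from -8.25 to 1.03. Without single libraries siEXOSC3 minus siScramble ran from 0 to 7.24, siEXOSC3 minus siDDX1 from 3.47 to 12.7, the largest difference across groups from 4.46 to 12.7 (windows), 3.42 to 11.2 (starts) and 1.71 to 6.06 points (divergent minus single), and RNase H against untreated from -45.2 to -41.7 points. Replicate numbers are shared between groups, but the correlations of same-numbered libraries ran from -0.28 to 0.09, so the numbers were not taken as pairs. With the replicate number as a block, the tests across 3 groups gave p = 0.667, 0.694 and 0.778 (exact permutation) for differences of 6.93, 5.32 and 2.58 points, and the block changed no call.

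Only peaks with −log10 q of 5 or more left 17.2% of windows called in 9 of 9 and 42.6% in 0 of 9, with gap shares of 37.7% (up to 100 bases), 35.9% (200 to 300) and 30.2% (300 to 500). By summits 6.44% were called in 9 of 9, with gap shares of 33.1%, 36.5% and 37.1% up to 300 bases. Equal peak numbers left 40.1% at 0 of 9. Windows extended by 500 bases gave 20.5% and 39.4%. Counts of windows called in all of one group and none of another moved. siDDX1 over siScramble was 0 with the q limit, 200 covered bases, summits, shorter windows and gaps of 300 or less. siScramble over siDDX1 was 1 with the q limit, 200 covered bases, summits, shorter windows and equal peak numbers. siEXOSC3 over siScramble was 4 with the q limit, siScramble over siEXOSC3 was 2 with 200 covered bases or summits, siEXOSC3 over siDDX1 was 5 by summits, and siDDX1 over siEXOSC3 was 1 with the q limit, 2 by summits and 3 with equal peak numbers. Without single libraries the 6 counts ran from 1 to 6, 0 to 15, 7 to 20, 1 to 6, 3 to 33 and 0 to 2. Shares then ran from 24.4 to 27.6% (called in every library left), 33.3 to 35.1% (called in none of them) and 24.2 to 26.6% (both starts in 1 peak). Gap shares then ran from 45.3 to 47.6%, 45.1 to 47.8%, 43.6 to 45.9%, 37.6 to 39.9% and 38.1 to 41.4%. A dropped library loosens the criterion of all or none, so such counts and shares can only stay or rise. The counts of 15 and 33 came without siDDX1 replicate 1, where 1.09% and 2.36% of all coding promoter windows met the same criteria. For the other alternatives here this background share is not given. Peak calls hold no read depth per window, so a change within a called window could not be detected.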
